A study of Mus musculus with 8 samples.

Results

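Serpins are a family of proteins most of which block proteases, and 9 serpin genes (Serpine2, Serpinf1, Serping1, Serpina3n, Serpinb1a, Serpinb6a, Serpinb9, Serpini1 and Serpind1) were followed in the left ventricle of mice with and without angiotensin II (ANG II) infusion. The genes were chosen as named serpins with earlier results of these data known, so their counts are descriptions and not those of a neutral sample, and each was found as a single row among the 55679 rows of the deposited expression table, which holds 68 rows whose name begins with Serpin. RNA-seq had been carried out on left ventricles of wild-type male C57BL/6J mice, 4 infused with saline (control group) and 4 infused with ANG II at 1500 ng/kg/min (ANG II group), each for 7 days through an osmotic pump under the skin. The libraries held 14463408 to 16572754 fragments each, and expression was given as FPKM, fragment numbers scaled by transcript length and library size. The sources used here give no age, and they do not say that any animals were pooled. ANG II is a peptide that raises blood pressure, and the study used it to produce left ventricular hypertrophy, so these data hold 1 dose and 1 time point of a single hypertensive model. In these bulk samples, more cells of a type and more RNA per cell cannot be told apart.

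An inhibitory serpin offers a protease an exposed stretch, the reactive centre loop, as bait. When the protease cuts the loop, the serpin changes shape, the loop slides into the body of the serpin and the protease stays trapped. Which protease is caught depends largely on the loop, and the hinge at its start must be flexible, for which small residues such as alanine are needed. In the heart, serpins bear on clot breakdown, on complement, on enzymes released by white blood cells and on the turnover of matrix. Secreted members are Serpine2, Serpinf1, Serping1, Serpina3n, Serpini1 and Serpind1, while the clade B members Serpinb1a, Serpinb6a and Serpinb9 act mainly inside cells.

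The coding bases of the loop region show how the members with the largest changes differ, and how Serpina3n and Serpinb1a differ from a close relative of each that is described later. Each stretch runs from 3 codons before the hinge to the codons of a conserved proline and phenylalanine after the loop, 5′ to 3′ on the coding strand, from GENCODE M21 transcripts (GRCm38). Capitals mark the 8 hinge codons. The stretches of Serpina3n, Serpina3i, Serpinb1a, Serpinb1c, Serpinf1 and Serping1 lie within the last exon of their transcript, and that of Serpine2 spans an exon junction. They are at chr12:104413442-104413537 and chr12:104268474-104268569 on the plus strand for Serpina3n and Serpina3i. On the minus strand they are at chr13:32842884-32842976 for Serpinb1a, chr13:32881899-32881988 for Serpinb1c, chr11:75410209-75410295 for Serpinf1 and chr2:84765646-84765726 for Serping1, and Serpine2 runs within chr1:79796854-79799498 with the intron left out.
Serpina3n: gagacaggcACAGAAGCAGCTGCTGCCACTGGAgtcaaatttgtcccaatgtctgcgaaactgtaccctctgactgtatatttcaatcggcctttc
Serpina3i: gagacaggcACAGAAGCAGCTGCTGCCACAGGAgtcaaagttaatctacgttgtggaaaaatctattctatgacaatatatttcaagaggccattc
Serpinb1a: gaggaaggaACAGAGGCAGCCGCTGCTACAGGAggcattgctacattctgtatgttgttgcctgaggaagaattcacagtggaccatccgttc
Serpinb1c: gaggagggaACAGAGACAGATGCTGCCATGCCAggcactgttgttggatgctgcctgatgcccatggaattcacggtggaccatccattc
Serpine2: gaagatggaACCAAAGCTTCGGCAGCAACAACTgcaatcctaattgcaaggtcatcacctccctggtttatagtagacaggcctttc
Serpinf1: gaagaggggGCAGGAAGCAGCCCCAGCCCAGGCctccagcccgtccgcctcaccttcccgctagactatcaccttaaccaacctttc
Serping1: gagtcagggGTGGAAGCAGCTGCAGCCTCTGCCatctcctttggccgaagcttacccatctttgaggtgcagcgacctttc
Codons that begin with GC encode alanine. The hinge held 4 of them among 8 codons in Serpina3n and in Serpinb1a, 5 in Serping1 and 3 in Serpine2, but 1 in Serpinf1, a secreted protein (pigment epithelium-derived factor) known not to inhibit proteases. In Serpina3n and Serpina3i, 23 of 24 hinge bases were identical, while over the whole stretch 77.1% of bases were. Serpinb1a and Serpinb1c shared 16 of 24 hinge bases and 66.7% of the stretch, and the Serpinb1c hinge held 2 alanine codons.

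All 9 genes had a higher mean in the ANG II group, and in each of them the lowest ANG II library lay above the highest control library. For comparison, 28.7% of the 19364 genes tested showed the same full separation, and 33.7% were separated in either direction. A gene was called changed at an adjusted p-value under 0.05 (limma on log2(FPKM + 1), Benjamini-Hochberg adjustment over all genes tested) together with an absolute log2 fold change above 0.5. By that rule 7 of the 9 were called, all higher, where 15.4% of all genes tested were called in either direction, 14.0% higher and 1.41% lower. Under median-of-ratios scaling 5 of the 9 were called, against 8.62% of all genes called higher. Serpinb9 and Serpind1 had an adjusted p-value under 0.05, as did 28.4% of all genes in the higher direction and 33.3% in either, without reaching that fold change. The median log2 fold change was 1.15 over the 9 genes and 0.15 over all genes tested. The value of 0.15 was a shift of all genes seen under the deposited scaling, and its source was not tested. Values relative to this shift are given for the smaller changes.

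**Figure D1:**
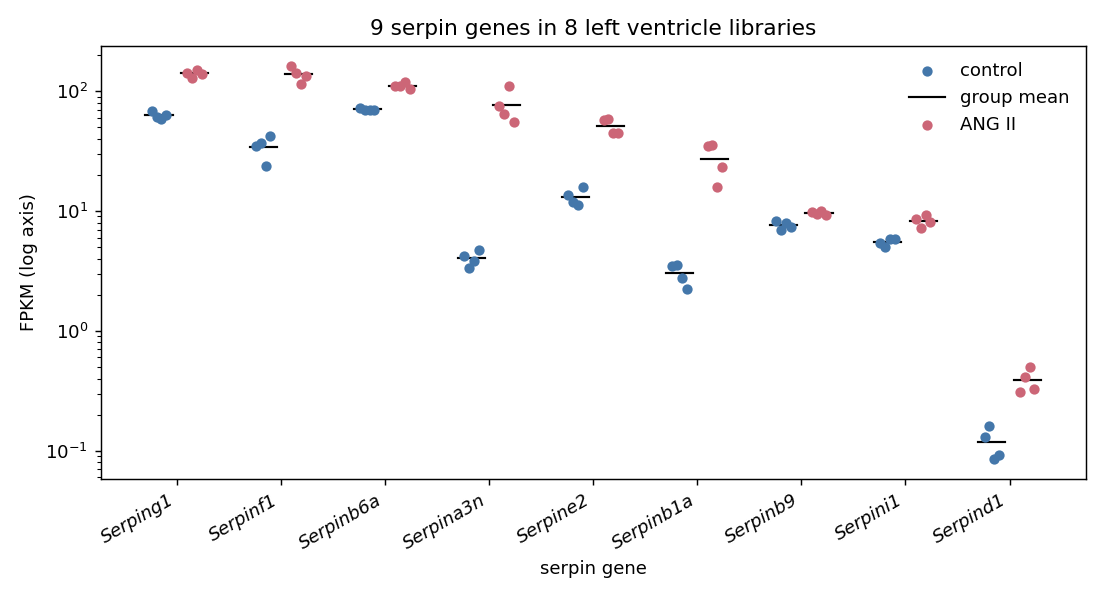
FPKM of the 9 serpin genes (log axis) in the 4 control (blue) and 4 ANG II (red) libraries; each point is a library and each line a group mean. The groups stand apart in every gene, by a wide margin in Serpina3n (55.5 against 4.72 FPKM for the nearest libraries) and a narrow one in Serpinb9 (9.26 against 8.297 FPKM).

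Serpina3n, a secreted inhibitor induced in acute-phase responses and counted among the mouse counterparts of human α1-antichymotrypsin, changed most. It was at 4.22, 3.32, 3.80 and 4.72 FPKM in the control libraries and at 75.4, 64.6, 109.9 and 55.5 FPKM in the ANG II libraries. The groups were far apart, with the lowest ANG II library 11.8 times the highest control library, but the ANG II libraries varied among themselves by a factor of 1.98. The mean rose from 4.02 ± 0.597 to 76.3 ± 23.8 FPKM (mean ± SD of 4 libraries each). Its log2 fold change was 3.91 with an SE of 0.184 (limma, Benjamini-Hochberg adjusted p = 2.36e-06). By fold change it ranked 8 among the 2981 called genes. Serpina3n (ENSMUSG00000021091) lies on chromosome 12 from 104406729 to 104414329 (GRCm38, GENCODE M21) beside close relatives, and 6.90% of its sequence, cut into words of 50 bases, is found in another gene as well, most often Serpina3f. When the FPKM of all Serpina3 rows were added together, the log2 fold change was 3.67.

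Serpinb1a, an intracellular inhibitor of neutrophil elastase and cathepsin G, was the next by fold change. Its control libraries held 3.49, 3.53, 2.78 and 2.22 FPKM, and its ANG II libraries 34.5, 35.7, 15.8 and 23.4 FPKM. ANG II library 3 was the lowest of the 4 for Serpinb1a and the highest for Serpina3n, so these genes did not follow the same order across animals. The mean rose from 3.01 ± 0.626 to 27.4 ± 9.50 FPKM (mean ± SD of 4 libraries each). The log2 fold change was 2.77 with an SE of 0.235 (limma, Benjamini-Hochberg adjusted p = 3.65e-05). It ranked 33 among the called genes. The control values rested on 31 to 47 fragments each. Serpinb1a (ENSMUSG00000044734) lies on chromosome 13 from 32842092 to 32851185, and 2.81% of its 50-base words recur elsewhere, most often in its neighbour Serpinb1c.

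Serpine2 (protease nexin-1, an inhibitor of thrombin and of plasminogen activators) was at 13.7, 11.9, 11.2 and 15.7 FPKM in control and at 57.5, 58.1, 44.4 and 44.3 FPKM in ANG II. All 4 ANG II libraries exceeded the highest control library by a factor of at least 2.82. The mean rose from 13.1 ± 2.001 to 51.1 ± 7.79 FPKM (mean ± SD of 4 libraries each). This came to a log2 fold change of 1.88 with an SE of 0.124 (limma, Benjamini-Hochberg adjusted p = 9.45e-06). Serpine2 (ENSMUSG00000026249) lies on chromosome 1 from 79794197 to 79861180 (GRCm38).

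Serpinf1, the secreted protein whose hinge lacks the alanine run, was at 34.5, 37.1, 23.5 and 41.8 FPKM in control and at 163, 141, 115 and 133 FPKM in ANG II. Control library 3 was the lowest control, and no ANG II library came near the control range. The mean rose from 34.2 ± 7.77 to 138 ± 19.9 FPKM (mean ± SD of 4 libraries each). Its log2 fold change was 1.998 with an SE of 0.164 (limma, Benjamini-Hochberg adjusted p = 2.92e-05). Serpinf1 (ENSMUSG00000000753) lies on chromosome 11 from 75409769 to 75422701. By fold change Serpine2 and Serpinf1 ranked 124 and 96 among the called genes.

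Serping1 encodes the C1 inhibitor, which blocks the complement proteases C1r and C1s as well as plasma kallikrein. Its libraries held 68.7, 60.7, 57.9 and 63.4 FPKM in control and 142, 128, 149.95 and 139.8 FPKM in ANG II. The libraries of each group lay close together, with a coefficient of variation of 7.32% in control and 6.42% in ANG II. The mean rose from 62.7 ± 4.59 to 140.1 ± 8.999 FPKM (mean ± SD of 4 libraries each). The log2 fold change was 1.15 with an SE of 0.066 (limma, Benjamini-Hochberg adjusted p = 4.70e-06). Serping1 (ENSMUSG00000023224) lies on chromosome 2 from 84765387 to 84775444 (GRCm38).

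Serpinb6a, an intracellular inhibitor of trypsin-like proteases and cathepsin G, was the most abundant of the 9 in control. It held 72.5, 69.9, 69.1 and 69.2 FPKM in control and 111, 109, 118 and 103 FPKM in ANG II. The control libraries were nearly level, with a coefficient of variation of 2.24%, and the mean rose from 70.2 ± 1.57 to 110.5 ± 6.19 FPKM (mean ± SD of 4 libraries each). This came to a log2 fold change of 0.65 with an SE of 0.0503 (limma, Benjamini-Hochberg adjusted p = 2.18e-05). Taken against the shift of all genes, the change was 0.499, and under median-of-ratios scaling and quantile normalization it was 0.42 and 0.48, under the fold change threshold although the adjusted p-value held. Serpinb6a (ENSMUSG00000060147) lies on chromosome 13 from 33917918 to 34002794. Genes of the opposite strand cover 29.3% of its exon length, and the use of strand is not given in the sources used here, so its level is uncertain.

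Serpini1 (neuroserpin, an inhibitor of tissue plasminogen activator best known from neurons) was at 5.43, 4.99, 5.82 and 5.82 FPKM in control and at 8.58, 7.26, 9.25 and 8.12 FPKM in ANG II. The means were 5.52 ± 0.395 and 8.30 ± 0.834 FPKM (mean ± SD of 4 libraries each). Its log2 fold change was 0.51 with an SE of 0.0906 (limma, Benjamini-Hochberg adjusted p = 0.00202). This stood just past the threshold, and 0.36 above the median of all genes, and the call was lost without ANG II library 1 (0.496), ANG II library 3 (0.46) or control library 2 (0.47) and under 3 other scalings, the lowest value being 0.21 with an adjusted p of 0.134 under quantile normalization. Serpini1 (ENSMUSG00000027834) lies on chromosome 3 from 75557547 to 75643495.

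Serpinb9, the inhibitor with which lymphocytes and their target cells guard against granzyme B, was at 8.297, 6.898, 7.94 and 7.29 FPKM in control and at 9.85, 9.51, 10.01 and 9.26 FPKM in ANG II. The ANG II libraries were higher by a small step and hardly varied. The means were 7.61 ± 0.631 and 9.66 ± 0.339 FPKM (mean ± SD of 4 libraries each). The log2 fold change was 0.31 with an SE of 0.0759 (limma, Benjamini-Hochberg adjusted p = 0.0108) and stood 0.16 above the median of all genes. Under median-of-ratios scaling the log2 fold change was 0.11 with an adjusted p of 0.353. It was 0.039 with an adjusted p of 0.746 under quantile normalization, and 0.179 with an adjusted p of 0.105 without mitochondrial and the top 10 genes. Serpinb9 (ENSMUSG00000045827) lies on chromosome 13 from 33003250 to 33017957.

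Serpind1 (heparin cofactor II, a thrombin inhibitor made chiefly by the liver) was near the lower limit of the measurement. It was at 0.13, 0.161, 0.0854 and 0.0925 FPKM in control, which is 3 to 5 fragments per library, and at 0.311, 0.414, 0.499 and 0.325 FPKM in ANG II, or 10 to 16 fragments. Over each group, 15 fragments in control stood against 51 in ANG II, a ratio of 3.33 after allowing for depth (exact 95% interval 1.84 to 6.37, counting error only). This came to a log2 fold change of 0.31 with an SE of 0.0849 (limma, Benjamini-Hochberg adjusted p = 0.0186), which is 0.16 above the median of all genes, and with low values this scale understates a change. With a pseudocount of 0.1 FPKM it was 1.16, and with voom (limma's method for counts) on fragment numbers it was 1.62, both past the threshold. Under quantile normalization it was 0.22 with an adjusted p of 0.0857, and with the replicate number as a block the adjusted p was 0.0558, neither under 0.05. Serpind1 (ENSMUSG00000022766) lies on chromosome 16 from 17331371 to 17343575. Of the hepatocyte markers, 0 of 4 tested were called by limma, by voom or at an unadjusted p-value under 0.05, and their summed level was 1.32 to 5.82 FPKM in control and 3.91 to 8.82 FPKM in ANG II, with Fgb at 0 in all libraries.

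**Figure D2:**
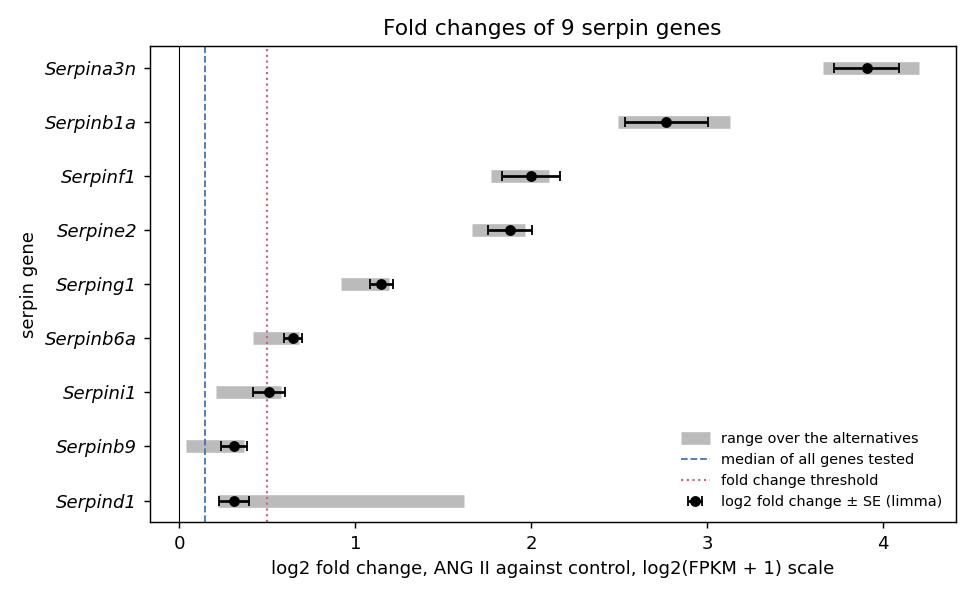
Log2 fold change of each serpin gene, ANG II against control, with its SE (points and bars, n = 4 each), over the range of the alternative settings (grey); the x axis is on the log2(FPKM + 1) scale, apart from the alternatives that use another pseudocount or fragment numbers. Serpina3n, Serpinb1a, Serpinf1, Serpine2 and Serping1 stay above the dotted threshold of 0.5 throughout, while the grey ranges of Serpinb6a, Serpini1 and Serpind1 cross it.

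The order of abundance changed between the groups. FPKM is scaled by transcript length, so the levels may be set side by side, although Serpinf1, Serpinb1a and Serpinb6a have mean transcript lengths of 828, 911 and 987 bases in GENCODE M21, short partial transcripts included, which raises their FPKM. In control, the order by mean was Serpinb6a, Serping1, Serpinf1, Serpine2, Serpinb9, Serpini1, Serpina3n, Serpinb1a and Serpind1, and among neighbours in that order only Serpina3n and Serpinb1a overlapped. In ANG II, Serping1, Serpinf1, Serpinb6a, Serpina3n and Serpine2 led, each overlapping the next, followed by Serpinb1a, Serpinb9, Serpini1 and Serpind1 without overlap. Serpina3n thus moved from place 7 to place 4, and it made up 2.001 ± 0.242% of the summed FPKM of the 9 genes in control (SD over 4 libraries) but 13.5 ± 3.84% under ANG II. Serpinb6a made up 35.1 ± 2.11% and 19.7 ± 0.942%. The summed FPKM of the 9 genes was 182 to 211 in control and 517 to 602 in ANG II.

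The 9 genes made up 41.8 ± 2.68% of the FPKM of all serpin rows in control and 57.1 ± 1.10% in ANG II (SD over 4 libraries). Among the other 59 rows Serpinh1, a collagen chaperone that does not inhibit proteases, was above each of the 9 genes, with a mean of 234 ± 26.8 FPKM in the control group against 309.6 ± 28.5 FPKM under ANG II, and was not called (log2 fold change 0.40, limma adjusted p = 0.00834). Of the 59 rows, 28 were at 0 in all libraries, 16 were under the filter of a mean of 0.1 FPKM and 15 were tested. Of these 15, 6 were called higher and 0 lower, beside 14.0% and 1.41% of all genes tested. Their median log2 fold change was 0.40, against 0.15 for all genes. At an unadjusted p-value under 0.05 limma gave 9 higher and 0 lower, and voom on fragment numbers called 8 higher and 0 lower. Serpinb1c, the neighbour of Serpinb1a, was at 0.0926 to 0.401 FPKM in control and 2.28 to 5.14 FPKM in ANG II, and rose by 2.02 on the log2 scale (SE 0.197). Its 4 control libraries held 2 to 8 fragments, and the ratio of fragments was 16.8 (exact 95% interval 10.7 to 27.9). Of the 50-base words of Serpinb1c, 6.28% recur elsewhere, most often in Serpinb1a, so its value is uncertain as well. Serpina3i, a neighbour of Serpina3n, had 9 fragments over the control group and 225 over the ANG II group, a ratio of 24.5 (exact 95% interval 12.7 to 54.2), but 15.9% of its 50-base words recur elsewhere, most often in Serpina3g, so its value is uncertain. Serpinb6b was called (log2 fold change 0.50) although its groups overlapped, and Serpina3g and Serpina3h were called with ANG II means of 1.21 and 0.94 FPKM. Serpinh1, Serpinb6b, Serpina3g and Serpina3h were chosen after their values were seen.

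**Figure D3:**
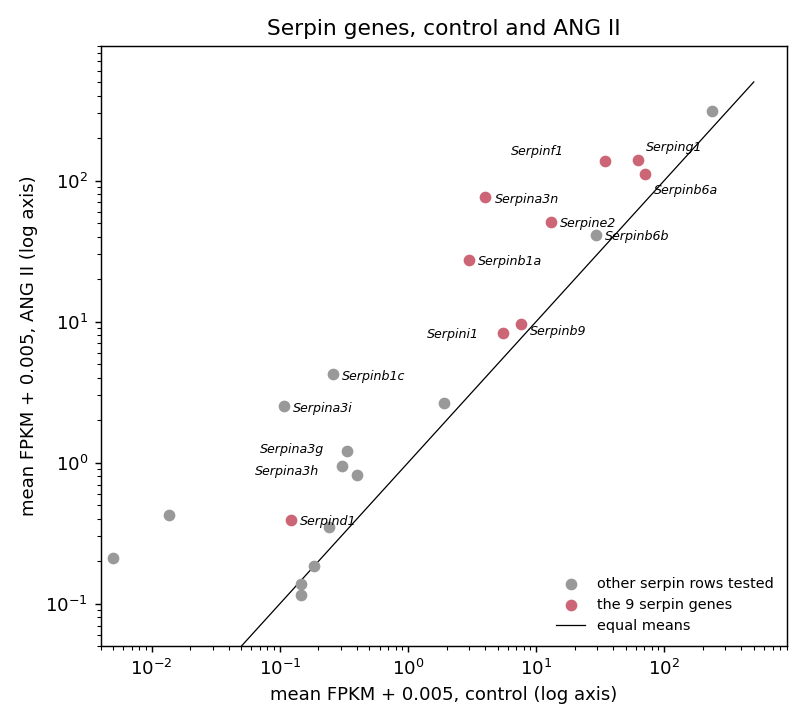
Mean FPKM in ANG II against mean FPKM in control (both log axes, 0.005 FPKM added to each) for the 9 serpin genes (red) and other serpin rows tested (grey, 1 row not shown), with a line of equal means. Serpina3n, Serpinb1a, Serpinb1c and Serpina3i lie farthest above the line among the named genes, and Serpinb9 lies close to it; the unlabelled point at the left edge is a row at 0 in control.

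The proteases and receptors that these serpins meet were then read from a list of fibrinolysis and coagulation genes. Of 36 genes, 23 were tested, and 13 were called higher and 0 lower, beside 14.0% and 1.41% of all genes tested. The median log2 fold change of the 23 was 0.71, against 0.15 for all genes. At an unadjusted p-value under 0.05 limma gave 17 higher and 2 lower, and voom called 14 and 0. Other scalings gave lower calls, with 10 higher and 1 lower under the median of ratios, 10 and 2 under quantile normalization and 12 and 1 without mitochondrial and the top 10 genes. Lrp8, a lipoprotein receptor, rose by 1.68 on the log2 scale (SE 0.156), Anxa2, a plasminogen receptor subunit, by 1.27 (SE 0.105) and Plaur, the urokinase receptor, by 1.16 (SE 0.181). Plat (tissue plasminogen activator) rose from 12.5 ± 1.42 to 22.7 ± 2.08 FPKM (mean ± SD of 4 libraries each) and Plau (urokinase) from 2.32 ± 0.746 to 4.71 ± 1.48 FPKM with overlap between the groups. F2, which encodes the precursor of thrombin, was listed at 0 in all libraries, as were Fga, Fgb and Fgg, the fibrinogen chains. F3, tissue factor, and Tfpi, its inhibitor, were lower in ANG II by 0.28 and 0.42 on the log2 scale, with limma adjusted p-values of 0.0362 and 0.00222, and did not pass the fold change threshold, although they lay at -0.43 and -0.57 against the shift of all genes; these were chosen after their values were seen.

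Setting an inhibitor against its proteases within each library gives a measure that does not depend on how libraries were scaled. Serpine2 over the sum of Plat and Plau was 0.908, 0.743, 0.844 and 1.04 in control and 1.91, 2.45, 1.53 and 1.65 in ANG II. Every ANG II library lay above every control library, with a difference in mean log2 ratio of 1.08 (SE 0.180). The exact two-sided permutation p was 0.0286, the smallest that 4 against 4 allows, and 0.0857 after Benjamini-Hochberg adjustment over the 3 ratios examined. The ratio did not pass after correction, and it could not have passed unless another ratio also reached the smallest p. Serpini1 over Plat overlapped between the groups, at 0.354 to 0.526 in control and 0.34 to 0.404 in ANG II (log2 difference -0.27, SE 0.131, exact permutation p = 0.0857, adjusted 0.129).

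Serping1 over the sum of C1ra and C1s1, the mouse genes for the proteases it blocks in the first complement complex, was 3.07, 3.12, 2.98 and 3.49 in control and 3.26, 3.51, 2.93 and 3.24 in ANG II. The ranges lay almost on top of each other, with a log2 difference of 0.03 (SE 0.0732, exact two-sided permutation p = 0.714, n = 4 and n = 4). Serping1, C1ra and C1s1 had log2 fold changes of 1.15, 1.04 and 1.06. Of 24 complement genes, 20 were tested, and 11 were called higher and 0 lower, beside 14.0% and 1.41% of all genes tested. The median log2 fold change of the complement genes was 0.91, against 0.15 for all genes. At an unadjusted p-value under 0.05 limma gave 11 higher and 3 lower, and voom called 11 and 0, while quantile normalization gave 11 and 1. Those with the largest changes were Clu, the complement regulator clusterin, at 2.31 (SE 0.135), C4b at 1.89 (SE 0.213) and C3 at 1.49 (SE 0.248).

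**Figure D4:**
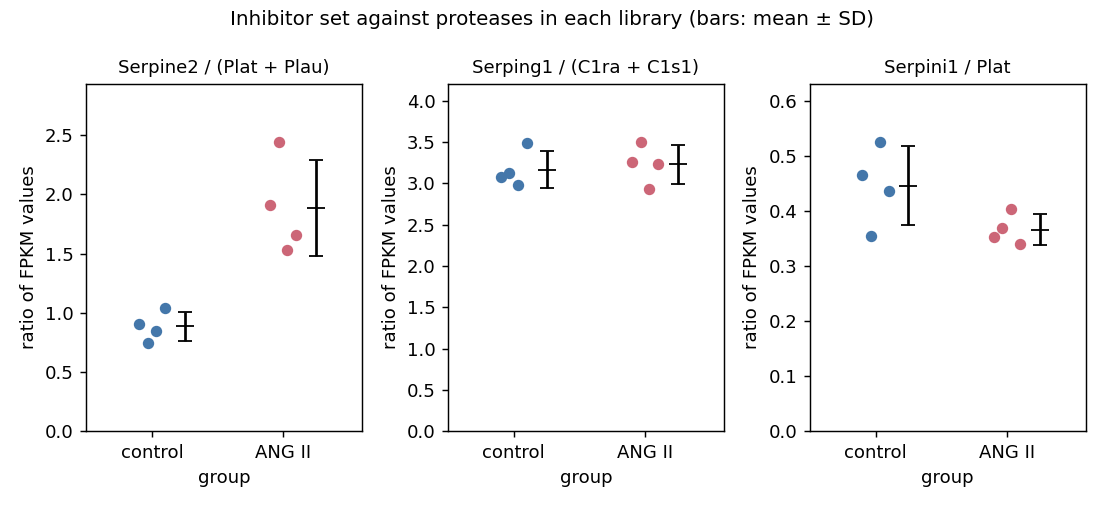
Ratio of FPKM values within each library (y axis, no unit) for Serpine2 over Plat plus Plau, Serping1 over C1ra plus C1s1 and Serpini1 over Plat, in control (blue) and ANG II (red); bars give the mean and SD of 4 libraries. The Serpine2 ratio is higher in all 4 ANG II libraries, while the Serping1 ratio covers nearly the same range in both groups.

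Proteases of white-cell granules and lysosomes, with a few related genes, formed a further list, and the clade B serpins guard cells against such enzymes. Of 21 genes, 14 were tested, 5 were called higher and 1 lower, beside 14.0% and 1.41% of all genes tested, with a median log2 fold change of 0.41 against 0.15 for all genes. The called genes were Ctss, Ctsb and Ctsl, which are lysosomal cathepsins, Hp (haptoglobin, a haemoglobin carrier related to serine proteases), and Gzmk and Gzmm, granzymes of lymphocytes; Ctsl, Gzmk and Gzmm were named after their values were seen. Ctss rose by 2.00 on the log2 scale (SE 0.162), Hp by 1.78 (SE 0.469) and Ctsb by 0.82 (SE 0.0553), whereas Gzmm fell by 0.75 (SE 0.121). Elane and Ctsg, neutrophil elastase and cathepsin G, which Serpinb1a is known to block, were listed at 0 in all 8 libraries. Gzmb, the target of Serpinb9, was at 0.143 to 1.35 FPKM in control and 0.568 to 4.66 FPKM in ANG II and was not called.

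Most markers of fibroblasts, macrophages, neutrophils and red cells were called higher and some cardiomyocyte markers lower in the same ANG II libraries, where 14.0% of all genes tested were called higher and 1.41% lower, and their part in the serpin changes was not tested. Of the fibroblast markers 8 of 9 were called higher, with a summed level of 1249 to 1717 FPKM in control and 3490 to 3930 FPKM in ANG II. The remaining fibroblast marker, Gsn (gelsolin), was the most abundant of the 9 in control and averaged 819 ± 97.4 FPKM there but 587 ± 122 FPKM under ANG II, with a log2 fold change of -0.496 and a limma adjusted p of 0.028, and its groups overlapped; it was named after its values were seen. All 8 macrophage markers were called higher (232 to 294 and 503 to 705 FPKM). Of 7 neutrophil markers 6 were tested and 4 called higher (2.60 to 6.85 and 8.91 to 22.5 FPKM), and erythroid markers were called higher in 5 of 6 (96.8 to 487 and 581 to 2084 FPKM). Calls were fewer in the other lists, beside that 14.0% of all genes. Endothelial markers were called in 1 of 6 (393 to 414 and 437 to 489 FPKM), and smooth muscle and pericyte markers in 2 of 6 (448 to 520 and 504 to 572 FPKM), all higher. T and NK cell markers were called higher in 2 of 7 tested (1.75 to 9.23 and 6.87 to 14.4 FPKM), and neuron and Schwann cell markers in 2 of 6 tested (6.12 to 11.8 and 25.6 to 39.6 FPKM). At an unadjusted p-value under 0.05 limma gave 2 endothelial and 4 smooth muscle and pericyte markers, and voom called 1 and 2. For T and NK cell markers both gave 4, and for neuron and Schwann cell markers both gave 3. All of these were higher. Mesothelial (5 tested, 5.74 to 7.44 and 5.72 to 8.35 FPKM), adipocyte (4 tested, 0.336 to 2.52 and 0.13 to 3.76 FPKM) and mast cell markers (4 tested, 4.95 to 8.12 and 6.72 to 7.79 FPKM) had 0 calls by limma, 0 at an unadjusted p-value under 0.05 and 0 by voom. The cardiomyocyte markers defined the tissue in every library, with a summed level of 38344 to 38955 FPKM in control and 29263 to 32236 FPKM in ANG II and 2 of 8 called lower. Mitochondrially encoded genes took 26.3 to 26.95% of fragments in control and 19.2 to 21.8% in ANG II (exact two-sided permutation p = 0.0286, n = 4 and n = 4, the smallest possible). When the values were rescaled without mitochondrial and the top 10 genes, the median log2 fold change of the serpin genes was 1.002.

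Genes with the pattern most like each serpin were found by the root mean square difference over the 8 libraries of log2(FPKM + 1), each gene's own mean taken off, among the 11904 genes that averaged 1 FPKM or more. For Serpina3n they were Timp1 (0.192) and Fn1 (0.36), and for Serpinb1a Loxl3 (0.196) and Wisp2 (0.217). Serpine2 was most like Piezo2 (0.0926) and Fndc1 (0.0979), and Serpinf1 most like Aebp1 (0.122) and Nox4 (0.128). For Serping1 they were Iqgap1 (0.0632) and Csf1r (0.0671). The smaller changes of Serpinb6a, Serpini1 and Serpinb9 were most like those of Ifnar2 and Actn4, of Npm1, and of Fam45a and Eif4e2, at 0.0349 to 0.0569. The difference between the groups makes up most of each pattern, so this likeness says little about single animals.

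Promoters are shown for the members with log2 fold changes above 1.5 that RefSeq's table (GRCm38.p6) holds, as the 250 bases before the transcript start that RefSeq gives, 5′ to 3′ on the gene's strand. Serpina3n is at chr12:104406458-104406707 on the plus strand, Serpine2 at chr1:79858666-79858915 and Serpinf1 at chr11:75422624-75422873, both on the minus strand. The RefSeq starts differ from the ends of the GENCODE M21 gene spans given above, so the whole Serpine2 window and part of the Serpinf1 window lie inside those spans. Capitals mark matches to any of 8 motifs searched on both strands.
Serpina3n: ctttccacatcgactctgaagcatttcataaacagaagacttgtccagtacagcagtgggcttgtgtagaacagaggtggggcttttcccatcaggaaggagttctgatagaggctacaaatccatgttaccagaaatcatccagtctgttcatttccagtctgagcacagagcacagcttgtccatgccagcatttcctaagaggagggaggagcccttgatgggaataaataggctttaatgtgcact
Serpine2: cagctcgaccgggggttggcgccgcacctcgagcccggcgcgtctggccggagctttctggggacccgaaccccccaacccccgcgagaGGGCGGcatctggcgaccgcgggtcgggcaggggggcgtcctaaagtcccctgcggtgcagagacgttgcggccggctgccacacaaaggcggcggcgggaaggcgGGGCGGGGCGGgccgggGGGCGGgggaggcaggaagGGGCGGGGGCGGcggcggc
Serpinf1: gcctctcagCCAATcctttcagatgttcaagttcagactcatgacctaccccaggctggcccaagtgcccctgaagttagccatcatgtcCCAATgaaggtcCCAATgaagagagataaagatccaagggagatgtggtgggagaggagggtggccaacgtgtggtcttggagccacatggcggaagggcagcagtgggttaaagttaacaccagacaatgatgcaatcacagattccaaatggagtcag
The motifs were TTCNNNGAA for STAT factors, TGANTCA for AP-1 and GGGCGG for Sp1. Promoter elements were read as TATAAA for the TATA box and as CCAAT for the box of that name. The E-box was read as CACGTG and the Smad site as GTCTAGAC, and NF-kB was searched by its usual motif. They were searched in the 300 bases that include 50 after the RefSeq start, where 7 of the 9 members had an entry. The Serpine2 promoter, with a GC content of 78.8%, held 6 matches to GGGCGG, of which a pair overlaps by 1 base, and 35.7% of all 32851 promoters hold at least 1. The Serpinf1 promoter (51.6% GC) held 3 matches to CCAAT, which 37.4% of promoters hold. None of the 8 motifs was matched in the Serpina3n window (46.4% GC). The STAT motif, found in 8.3% of all promoters, was matched at 2 places near 1 of the 2 listed starts of Serpinb6a.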

How the data were processed

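RNA-seq had been carried out on left ventricles of 4 control and 4 ANG II mice. Per the labels, hearts were flushed with saline, mRNA was enriched on oligo(dT) beads, and the submitters' processing notes name Bowtie2, HISAT and RSEM without role or version. The authors deposited FPKM values, that is, fragment numbers scaled by transcript length and library size, with 1 column per library. The genome build, the annotation and the use of strand are not given in the sources used here. A passage of the labels on RNA extraction names cells other than heart, and the cardiomyocyte genes given above were present in every library. The study describes more animals than the 8 analysed here.

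Samples were grouped by their titles. The main test was limma 3.58.1 in R 4.3.3 (lmFit and trended eBayes) on log2(FPKM + 1) for the 19364 genes that averaged 0.1 FPKM or more, without covariate or block, after a test on simulated data. P-values were two-sided and adjusted over all genes tested. The study names limma, the adjusted p-value of 0.05 and the fold change threshold of 0.5; the base of the logarithm, the pseudocount and the filter were choices of this work. Fragment numbers were read from the steps of the FPKM values with GENCODE M21 mean transcript lengths, which gave 14463408 to 16572754 fragments per library, with 98.1 to 98.5% of values under 20 fragments within 0.02 of a whole number. Ratios were tested by exact permutation over 70 allocations. Counting intervals cover counting error only. P-values measure the spread between these libraries, which may be partly technical.

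The 9 genes and all lists were chosen with earlier results of these data known. Besides the 9 genes, the text names up to 3 called genes of the other serpins and of each list that changed most and averaged 1 FPKM or more, the partners of the ratios, and the 2 genes most like each member that averages 1 FPKM or more; any other gene is marked as such or is a known target of a member. Some genes that this rule names are not reported here. Alternatives changed the pseudocount, the filter, the scaling, the variance trend, the threshold, the block and each library in turn, and used voom on fragment numbers. Summing related rows was added after the data were seen. Tables and plots were made in Python 3.11.15 with pandas 2.3.3, scipy 1.17.1, numpy 2.4.6 and matplotlib 3.10.9.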

Additional observations from a re-analysis of the deposited data

How the results depend on the processing

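The count of called members was 5 to 9 over the alternatives (9 by adjusted p alone) and 6 to 7 with 1 library left out. The log2 fold change of each member stayed positive in every alternative in which that member was tested. Serpina3n, Serpinb1a, Serpinf1, Serpine2 and Serping1 kept their calls in all alternatives run, the thresholds included. Serpinb6a lost its call in 2 of 18 and Serpini1 in 6 of 17 alternatives at the threshold of 0.5, and both lost it at a log2 fold change threshold of 1. The cause of these losses was not tested. Scaling by the median of ratios or by quantiles takes off the shift of all genes, but Serpini1 also lost its call at the deposited scaling with 1 library left out. The median log2 fold change of the 9 genes was 1.15 as reported, 1.51 with a mean of at least 1 FPKM (which drops Serpind1), 0.92 under median-of-ratios scaling, 0.97 under quantile normalization, 1.62 with voom on fragment numbers, 1.002 without mitochondrial and top 10 genes, and 1.11 to 1.19 with 1 library left out. Over all genes, 6447 were called by adjusted p alone and 795 above a log2 fold change of 1, against 2981, and median-of-ratios scaling gave 1670 higher and 804 lower calls and quantile normalization 1413 and 986, where 2708 and 273 are reported. Above a log2 fold change of 1, the counts were 3 for the other serpins, 5 for fibrinolysis and coagulation and 2 for granule proteases. Other serpins numbered 4 to 7 calls with 1 library left out, fibrinolysis and coagulation genes 12 to 13, complement genes 11 and granule proteases 5 to 7.

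The groups share replicate numbers, but libraries with the same number did not deviate together (correlation -0.032 to 0.062). With a replicate block 2968 genes and 7 members were called, and the adjusted p of Serpind1 became 0.0558. The Serpine2 ratio was 0.945 to 1.17 (log2 difference) with 1 library left out, at an exact permutation p of 0.0571 each, the smallest possible, and with the block it was 1.08 at an exact p of 0.125, also the smallest. The Serping1 ratio ranged from -0.0097 (without ANG II library 2) to 0.0784, and the Serpini1 ratio from -0.38 to -0.19. Depth limits Serpind1 most, with 3 to 5 fragments per control library.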

Other observations

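The 9 genes also differed in how even they were among animals of a group. In ANG II the coefficient of variation ran from 3.51% for Serpinb9 to 34.7% for Serpinb1a, with 31.2% for Serpina3n. ANG II library 4 lay below its group mean in all 9 genes and ANG II library 1 above it in 8, on the log2(FPKM + 1) scale, by 0.11 and 0.0977 on average. ANG II library 3 held the highest value of its group in 6 of the 9 genes. Control library 1 lay above its group mean in 8 genes and control library 3 below it in 7. These values are descriptions of single animals, and whether they belong to the animals or to their libraries was not tested.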
